A study of Homo sapiens with 6 samples.

Results

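The mitochondrial ribosomal protein genes (MRP genes) were examined in HT29 cells with and without knockdown of ALDOA, a glycolytic enzyme. The members were defined by their symbols, as every symbol made of MRPL or MRPS, a number and at most 1 trailing letter A, B or C. This gave 78 genes of the 28278 symbols listed, and pseudogenes and antisense genes were left out. All 78 passed the filter on low counts, as did 15307 genes in total. HT29 is an established line of human colorectal adenocarcinoma with epithelial morphology. In the siALDOA group the cells received a siRNA against ALDOA (labelled ALDOA KD), in the siControl group a scrambled siRNA, and RNA was isolated after 48 h. Each group had 3 libraries from replicates labelled as biological. Only this 1 line was used, and nothing else was given to either group per the labels.

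Mitochondria keep a small genome of their own and read it with their own ribosome, which makes core subunits of the respiratory chain and of ATP synthase. The RNAs of this ribosome come from the mitochondrial genome, whereas its proteins are all encoded in the nucleus, made in the cytosol and imported. MRPL genes were named for the large subunit and MRPS genes for the small subunit, in which the message is decoded. Part of the proteins have a counterpart in the bacterial ribosome, and the others are found only in mitochondrial ribosomes. The name does not give the particle in every case. MRPS18A and MRPS30 are proteins of the large subunit, and MRPS36 is now known as a subunit of the oxoglutarate dehydrogenase complex. The 78 genes therefore comprised 51 of the large subunit, 26 of the small subunit and MRPS36.

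Many nuclear genes for mitochondrial proteins are known targets of the transcription factors NRF1, GABP and YY1, so the sequences around the starts of MRP genes were read from RefSeq (GRCh38.p14), where 69 of the 78 genes had an entry. Each window ran from 250 bases before to 50 bases after a start, and 5 words were searched on both strands. RefSeq gave 11 of the 69 genes several starts, up to 4, so the 69 genes had 85 windows, and a gene counted as holding a word when any of its windows did. The ETS word CCGGAAG (the core that GABP binds) was found in 30 of the 69 genes, or 43.5%, against 21.2% of 11344 tested genes and 12.2% of all 27305 genes with an entry. By window it was in 38.8% of the 85, against 16.2% of the windows of tested genes and 10.3% of all windows. The YY1 word AAGATGGCG was found in 13 genes (18.8%, against 4.37% and 2.14%), and by window in 15.3%, against 3.21% and 1.75%. The NRF1 word CGCATGCG was found in 3 genes (4.35%, against 4.29% and 2.46%). The SP1 word GGGCGG was found in 42 genes (60.9%, against 73.9% and 48.3%), and the CCAAT box in 23 (33.3%, against 42.6% and 39.7%). By window the shares were 60% for SP1, against 63.8% and 45%, and 32.9% for the CCAAT box, against 34.6% in both. No pair of these words is the same sequence, and 7 of the 69 genes held none of them. The matches are letters in a window and not measured binding.

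The 8 windows of 80 bases shown here run from 60 before to 20 after the RefSeq start, from 5′ to 3′ on the strand of the gene. MRPS15 is shown because its mRNA changed most clearly, MRPL28 and MRPL54 because they had the smallest p among the genes with lower mRNA, and MRPS31 and MRPS26 because they carry the ETS word in opposite orientations. MRPS10 and MRPS18A carry the ETS and the YY1 word together, and MRPL17 carries the NRF1 word. MRPL10, whose mRNA also changed (below), had no RefSeq entry, so it is not shown and was not searched. Capitals mark the searched words or their reverse complements (CTTCCGG for ETS, ATTGG for the CCAAT box).
MRPS15, chr1:36464365-36464444, minus strand: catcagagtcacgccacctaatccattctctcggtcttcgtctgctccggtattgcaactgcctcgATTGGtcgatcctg
MRPL28, chr16:370519-370598, minus strand: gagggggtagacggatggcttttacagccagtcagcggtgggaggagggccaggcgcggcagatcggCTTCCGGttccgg
MRPL54, chr19:3762622-3762701, plus strand: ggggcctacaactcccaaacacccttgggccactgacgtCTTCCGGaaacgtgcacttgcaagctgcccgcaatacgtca
MRPS26, chr20:3045992-3046071, plus strand: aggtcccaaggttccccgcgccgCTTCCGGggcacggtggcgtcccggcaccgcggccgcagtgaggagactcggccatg
MRPS31, chr13:40771171-40771250, minus strand: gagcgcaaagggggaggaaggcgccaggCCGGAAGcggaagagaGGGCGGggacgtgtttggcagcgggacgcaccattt
MRPS10, chr6:42217842-42217921, minus strand: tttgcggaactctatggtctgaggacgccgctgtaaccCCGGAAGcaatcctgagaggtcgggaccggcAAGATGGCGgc
MRPS18A, chr6:43687772-43687851, minus strand: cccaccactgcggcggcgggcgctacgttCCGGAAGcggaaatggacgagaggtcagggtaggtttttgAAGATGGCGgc
MRPL17, chr11:6683321-6683400, minus strand: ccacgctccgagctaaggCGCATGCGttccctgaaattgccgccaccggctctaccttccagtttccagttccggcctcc

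The YY1 word lay after a start in 10 of its 13 genes, with its first base between positions 7 and 36, as in MRPS10 and MRPS18A, where it began at position 10. The ETS word lay within 50 bases of a start in 25 of its 30 genes, counting any start. Both words occurred in 4 genes, and at least 1 of them in 39.

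The libraries held 27277538 to 33237914 counts, and each MRP gene had between 219 and 4093 counts in every library. Values are given as CPM, that is, counts scaled to a common library size with TMM factors, and changes as log2 fold changes of siALDOA over siControl with their standard error (SE). The test was edgeR's quasi-likelihood test with Benjamini-Hochberg adjustment over all 15307 genes, and a gene was called changed at an adjusted p below 0.05. The p-values measure the spread between these libraries only. Ribosomal RNA genes took 7.71% to 17.4% of the counts. ALDOA itself, the target, was lower in every siALDOA library, at 283, 305 and 280 CPM against 592, 637 and 668 CPM with siControl, a log2 fold change of -1.13 (SE 0.060, adjusted p = 6.95e-11). Of 11 colon epithelial markers, 10 were expressed, with a summed level of 9479 to 9811 CPM with siALDOA and 10045 to 10606 CPM with siControl. Of these, KRT19 was called higher (log2 fold change 0.38, adjusted p = 0.000577) and KRT18 lower (-0.28, adjusted p = 0.0152). LGALS4 was listed at 0 counts in every library, as were RPL7A and NDUFS1, which all cells use. Of 14 markers of fibroblasts, endothelium and blood cells, CD3E, COL1A2 and TYROBP were at 0 in every library, and 8 with these included had at most 3 counts in each. Their summed level was 21.0 to 22.4 CPM with siALDOA and 19.0 to 19.3 CPM with siControl, with CD14 called higher (0.32, adjusted p = 0.0485) and PECAM1 lower (-1.23, adjusted p = 0.0429). The part of either set of cells in the results on MRP genes was not tested.

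The knockdown was followed by few changes among the MRP genes. At the threshold, 2 of 78 changed, MRPS15 and MRPL10, and both rose by about 1.19-fold. By edgeR's quasi-likelihood test 0 fell, although 7 were lower at an unadjusted p below 0.05. Limma-voom also called 0 lower, whereas DESeq2 and edgeR's likelihood ratio test each called 1 (MRPL28), as did the quasi-likelihood test with no filter on low counts (MRPL54). The 2 genes are 2.56% of the MRP genes, whereas 9.66% of all tested genes were called, 4.36% as higher and 5.29% as lower with siALDOA. Among the 8550 tested genes whose mean level lay in the range of the MRP genes, from 9.21 to 122 CPM, 11.7% were called. The median log2 fold change of the 78 genes was 0.025, beside 0.0016 over all tested genes, and 42 were above 0 and 36 below. This split moved with the scaling and the libraries. With library totals only, where the median of all tested genes was 0.075, 61 of the 78 were above 0, and with 1 library left out between 36 and 49.

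MRPS15 (ENSG00000116898, chromosome 1, 36455718 to 36464384, minus strand) encodes a small-subunit protein with a counterpart in bacteria, where it contacts the ribosomal RNA. Its mRNA was 50.3, 46.3 and 45.1 CPM with siALDOA and 38.8, 40.0 and 39.9 CPM with siControl. Every siALDOA library was above every siControl library. The log2 fold change was 0.25 (SE 0.070, 95% interval 0.11 to 0.40, adjusted p = 0.0243). MRPL10 (ENSG00000159111, chromosome 17, 47823272 to 47831541, minus strand) encodes a large-subunit protein at the base of the stalk, to which MRPL12 binds. It was at 42.4, 44.6 and 41.1 CPM with siALDOA and 35.2, 34.9 and 37.5 CPM with siControl. These groups did not overlap either, and the log2 fold change was 0.25 (SE 0.072, 95% interval 0.10 to 0.40, adjusted p = 0.0300). MRPL12, its partner in the stalk, had a log2 fold change of -0.08 (SE 0.065, adjusted p = 0.519). Both calls were held by a narrow margin. That of MRPS15 was lost when any library other than siALDOA replicate 3 was left out (adjusted p = 0.0551 to 0.0855), and that of MRPL10 without siALDOA replicate 2 or any of the siControl libraries (adjusted p = 0.0566 to 0.126).

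**Figure D1:**
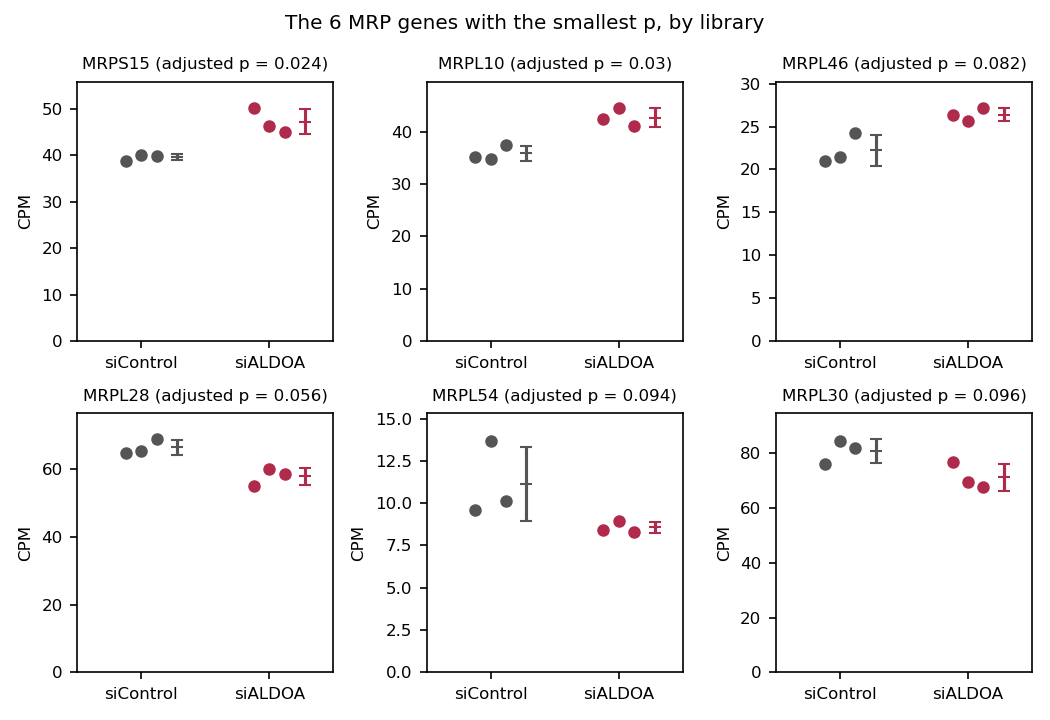
Levels of the 6 MRP genes with the smallest p by library, in CPM from 0 (y axis), for siControl and siALDOA (x axis). Points are libraries, bars beside them the mean and SD (n = 3). MRPS15, MRPL10 and MRPL46 lie higher with siALDOA in every library, MRPL28 and MRPL54 lower, and the MRPL30 groups overlap.

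The genes next in order of p missed the threshold, and they lay on both sides of 0. MRPL28 (chromosome 16, 366969 to 371289), a large-subunit protein with a bacterial counterpart, was at 55.1, 60.1 and 58.5 CPM with siALDOA and 65.0, 65.5 and 69.0 CPM with siControl. Its groups were apart, with a log2 fold change of -0.20 (SE 0.064, adjusted p = 0.0560). It passed with DESeq2 (adjusted p = 0.0395) and with edgeR's likelihood ratio test (adjusted p = 0.0415). With library totals only its log2 fold change was -0.13 (adjusted p = 0.435). It also missed the threshold whichever library was left out (adjusted p = 0.0779 to 0.237). MRPL46 (chromosome 15, 88459477 to 88467390), found only in mitochondrial ribosomes, was at 26.3, 25.7 and 27.2 CPM against 21.0, 21.4 and 24.3 CPM (log2 fold change 0.25, SE 0.087, adjusted p = 0.0823). MRPL54 (chromosome 19, 3762682 to 3768575), also without a bacterial counterpart, had the lowest log2 fold change of all MRP genes, -0.38 (SE 0.14, adjusted p = 0.0943). It was at 8.44, 8.95 and 8.31 CPM with siALDOA and 9.62, 13.7 and 10.1 CPM with siControl. The siControl libraries of this gene were uneven, with replicate 2 far above the other two, and without that library its log2 fold change was -0.20. MRPL30 (chromosome 2, 99181152 to 99199561) was at 76.7, 69.4 and 67.6 CPM against 76.0, 84.6 and 81.9 CPM (log2 fold change -0.18, SE 0.067, adjusted p = 0.0965). Its siALDOA replicate 1 lay within the siControl range, and without that library it passed (adjusted p = 0.0201). This was the 1 setting of 15 in which MRPL30 passed. With library totals only its log2 fold change was -0.11 (adjusted p = 0.482).

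Of the remaining large-subunit genes named here, MRPL45, which anchors the ribosome at the inner membrane near the exit of the nascent chain, had a log2 fold change of 0.17 (adjusted p = 0.109). It was at 107, 93.5 and 104 CPM with siALDOA and 93.4, 88.9 and 88.9 CPM with siControl, barely apart. MRPL24, MRPL17 and MRPL52 had log2 fold changes of 0.22, 0.14 and 0.21 (adjusted p = 0.155, 0.182 and 0.287). Without siControl replicate 1 the value of MRPL24 was 0.15, and without siALDOA replicate 1 that of MRPL52 was 0.13. MRPL42, MRPS30 and MRPL9 had values of -0.14, -0.14 and -0.15 (adjusted p = 0.202, 0.210 and 0.273), and that of MRPL9 was -0.075 without siControl replicate 2. None of these 7 genes passed the threshold in the main fit. MRPL45 passed when the replicate number was added to the fit as a block (adjusted p = 0.0477). Over the 51 large-subunit genes the median was 0.033, 31 were above 0 and 20 below, and 1 was called.

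Among the small-subunit genes, MRPS14 and MRPS18B had log2 fold changes of 0.22 and 0.15 (adjusted p = 0.164 and 0.168), and MRPS31 had 0.21 (adjusted p = 0.201). Without siControl replicate 1 the value of MRPS14 was 0.14. MRPS18B is 1 of 3 human relatives of a single bacterial protein, beside MRPS18A and MRPS18C, and the values of the other two were 0.06 and 0.10 (adjusted p = 0.711 and 0.611). MRPS27, a pentatricopeptide repeat protein, had a value of -0.15 with groups that were apart (adjusted p = 0.131). Its value was -0.082 with library totals only (adjusted p = 0.620). MRPS22 and MRPS26, both without a bacterial counterpart, had values of -0.18 and -0.15 (adjusted p = 0.234 and 0.257). In the same scaling by totals these were -0.11 and -0.074. The median of the 26 small-subunit genes was -0.0063, with 11 above 0, 15 below and 1 called. MRPS36, the gene that belongs to neither subunit, was at 15.2, 16.3 and 12.6 CPM with siALDOA and 18.7, 17.1 and 16.4 CPM with siControl. Its groups were barely apart, with a log2 fold change of -0.24 (SE 0.11, adjusted p = 0.179), which was -0.15 without siALDOA replicate 3.

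By origin, the 46 genes with a bacterial counterpart had a median log2 fold change of -0.00013 and held both called genes. The 29 genes found only in mitochondria had a median of 0.040, with 0 called by edgeR's quasi-likelihood test as run here, although MRPL54 passed with no filter on low counts. At an unadjusted p below 0.05 there were 8 of the 46 (17.4%) and 7 of the 29 (24.1%), beside 23.6% of all tested genes. MRPS28, MRPL55 and MRPS36 were placed in neither class. At an unadjusted p below 0.05 there were 16 MRP genes, 9 higher and 7 lower, which is 20.5% beside 23.6% of all tested genes. Below 0.01 there were 3, or 3.85% beside 12.5%. For 17 MRP genes, or 21.8%, the values of both groups were fully apart, 10 with higher and 7 with lower values. Over all tested genes the latter share was 27.7%, and in the same range of levels it was 31.3%.

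**Figure D2:**
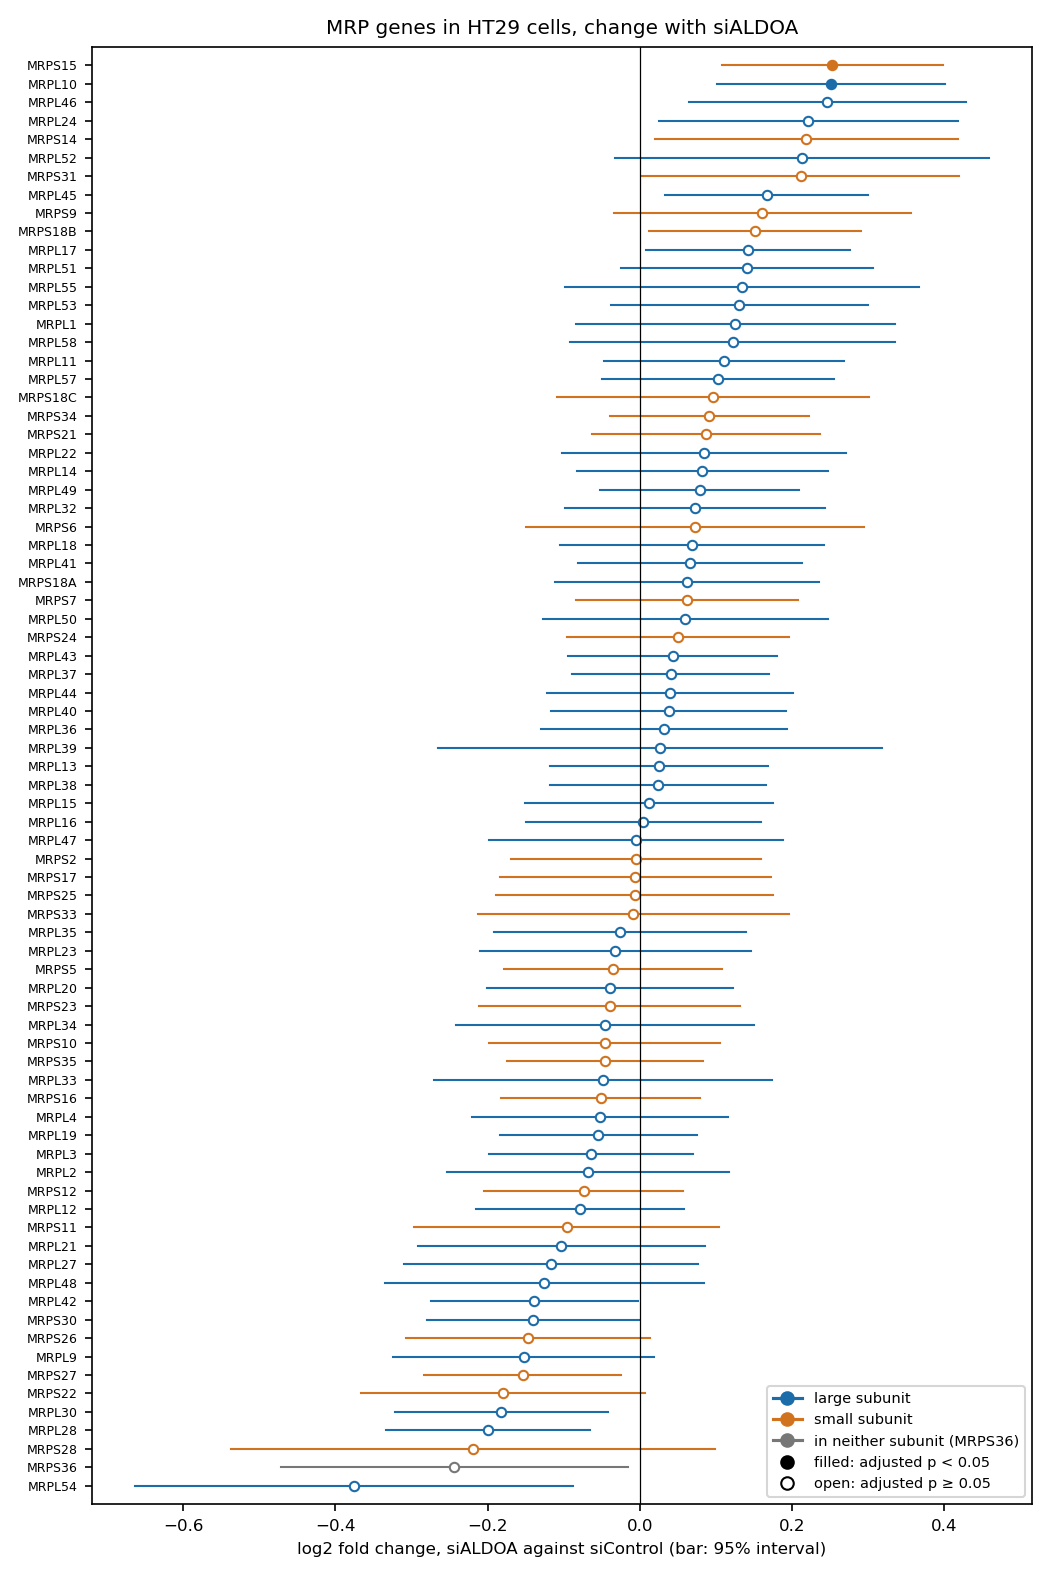
Log2 fold change of siALDOA over siControl (x axis) with its 95% interval for each of the 78 MRP genes (y axis, sorted), coloured by subunit. Filled points are the 2 genes with an adjusted p below 0.05, MRPS15 and MRPL10, and the values run from -0.38 in MRPL54 to 0.25 in MRPS15.

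The precision of the measurement limits how large an unseen change could be. The median SE of the 78 log2 fold changes was 0.079, and the coefficient of variation between replicates had a median of 6.05% with siALDOA and 5.43% with siControl. It was highest for MRPL48 with siALDOA (15.5%) and for MRPS28 with siControl (25.4%). The 95% interval of the log2 fold change lay within 0.5 of 0 for 76 of the 78 genes (97.4%), all but MRPL54 and MRPS28. The same held for 66.9% of all tested genes and for 90.9% of those in the same range of levels. For 39 MRP genes the interval lay within 0.25 of 0. The estimates themselves were within 0.25 of 0 for 75 genes (96.2%, beside 74.7% of all tested genes) and within 0.1 for 46 (59.0%, beside 40.5%).

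The width of the middle part of the distribution, from the lower to the upper quartile of the log2 fold changes, was 0.14 for the MRP genes. It was 0.26 over all tested genes and 0.21 over those in the range of levels of the MRP genes. Cytosolic ribosomal protein genes, at far higher levels, had a width of 0.091, and the nuclear genes of complex I, the first complex of the respiratory chain, one of 0.11. The MRP genes thus spread wider than both of these groups and less than the whole set. Of the shorter lists described below, 4 were wider than the MRP genes. The widths were 0.21 for assembly genes, 0.25 for translation factors, 0.20 for mitochondrial transcription and 0.16 for regulators. The 5 ribosomal proteins with other names were narrower, at 0.13.

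**Figure D3:**
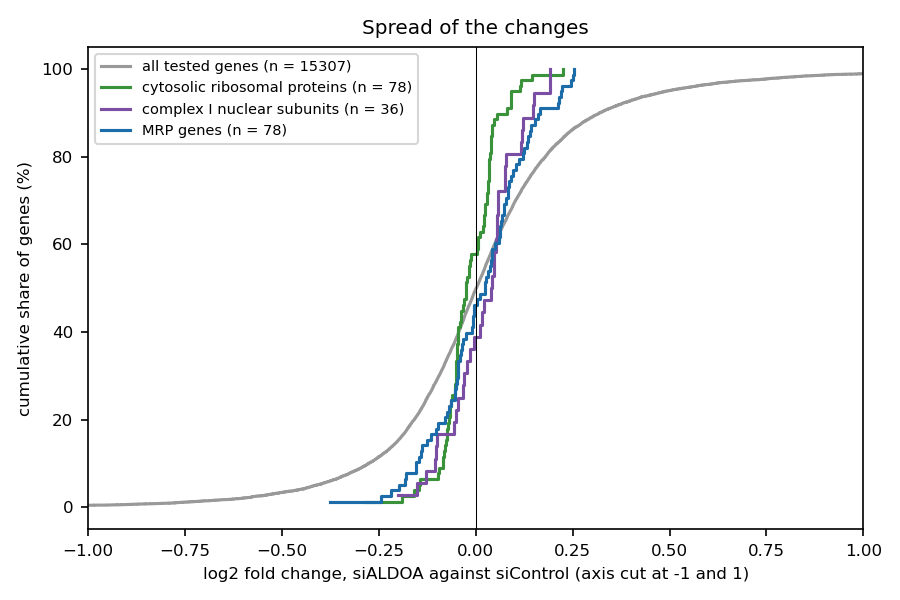
Cumulative share of genes in percent (y axis) by log2 fold change of siALDOA over siControl (x axis, cut at -1 and 1) for 78 MRP genes, 78 cytosolic ribosomal protein genes, 36 complex I genes and all 15307 tested genes. The curves of the named groups rise steeply around 0, and that of all tested genes rises more slowly.

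Summed over the 78 genes, the level was 3382, 3469 and 3394 CPM with siALDOA and 3264, 3479 and 3437 CPM with siControl. The groups overlapped, and their means were 3415 ± 47.2 and 3393 ± 114 CPM (SD, n = 3), a difference of 0.641%. The large-subunit genes summed to 2155 ± 23.4 and 2137 ± 80.9 CPM, and the small-subunit genes to 1245 ± 23.1 and 1239 ± 36.5 CPM. As a share of all counts before scaling, the MRP genes took 0.350% ± 0.015 with siALDOA and 0.331% ± 0.024 with siControl. With ribosomal RNA genes taken out of the total, the shares were 0.388% ± 0.0052 and 0.383% ± 0.011. The lowest sum was that of siControl replicate 1, which also had the highest share of ribosomal RNA (17.4%). With the ribosomal RNA genes left out of the fit, the log2 fold changes of MRPS15 and MRPL10 hardly moved, at 0.25 each, and both were called. Without siControl replicate 1 neither was called (adjusted p = 0.0708 and 0.0778). The part of ribosomal RNA in these calls was not tested. In bulk RNA, fewer cells of a type and less RNA per cell cannot be told apart.

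Levels of different MRP genes were compared per kb of the MANE Select transcript (GENCODE 44, hg38). Most of these proteins occur once in the assembled ribosome, whereas their mRNAs spread over a wide range of levels. The CPM per kb had a median of 28.02 with quartiles of 15.2 and 44.5, and the highest was 32.0 times the lowest. MRPS34, a small-subunit protein found only in mitochondria, was highest, at 126 ± 9.86 CPM per kb with siALDOA and 119 ± 0.22 with siControl (SD, n = 3). MRPS12, which forms part of the decoding site, followed at 89.5 ± 5.24 and 94.2 ± 2.60 CPM per kb, and MRPL12 at 87.2 ± 4.57 and 92.1 ± 5.96. MRPS34 stood above MRPS12 in every library, whereas MRPS12 and MRPL12 overlapped. MRPL42 was lowest, at 3.64 ± 0.188 and 4.01 ± 0.121 CPM per kb, on a transcript of 15557 bases, the longest among MRP genes, whose median was 1242 bases. In CPM without division by length MRPL42 was at 56.7 ± 2.93 and 62.4 ± 1.88, so its place in this order rests on the transcript chosen. The ratio of 32.0 rests on it too. Without division by length the mean levels ran from 9.21 to 122 CPM.

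**Figure D4:**
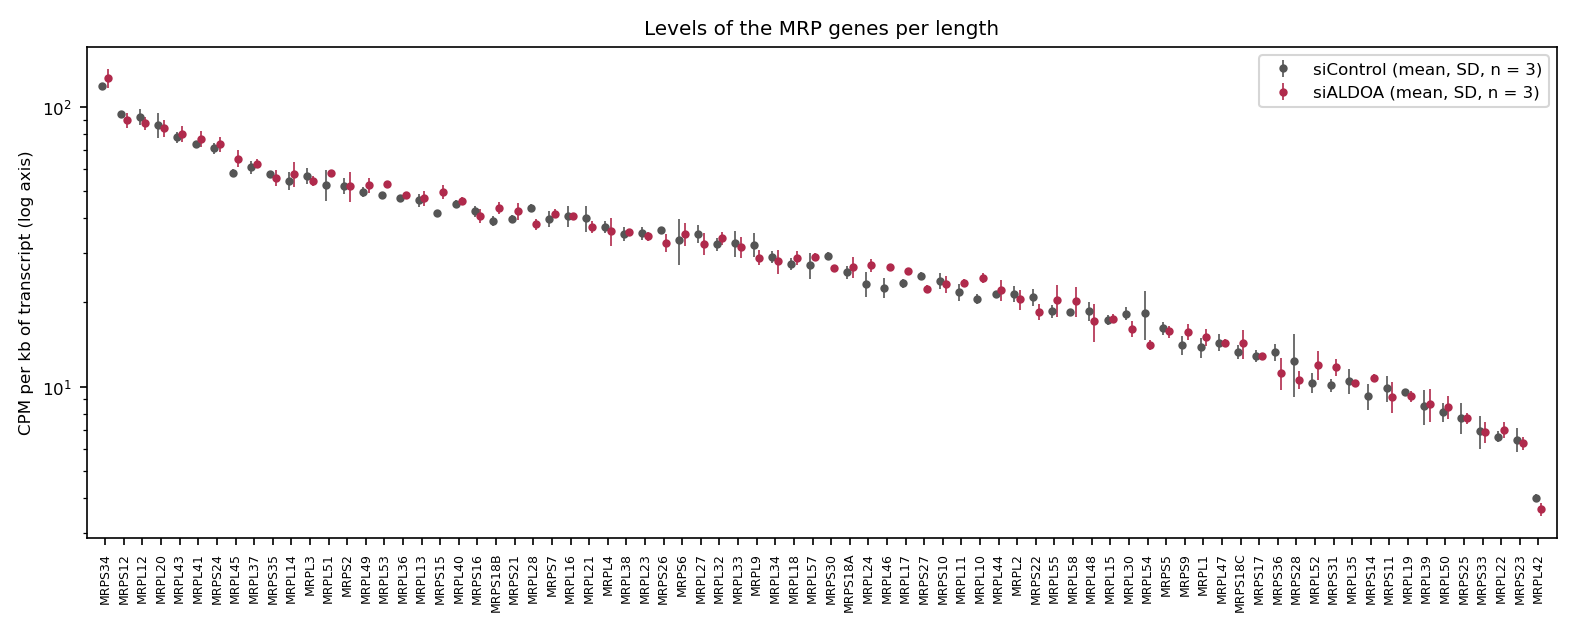
Level of each MRP gene in CPM per kb of transcript (y axis, log scale) for siControl and siALDOA, sorted by mean level (x axis), as mean with SD (n = 3). MRPS34 stands at the top and MRPL42 at the bottom, and the points of both groups lie close together for most genes.

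In plain CPM the most abundant MRP mRNAs by the mean over all 6 libraries were MRPS34 (126 ± 9.84 with siALDOA, 118 ± 0.22 with siControl), MRPS16 (105 ± 6.19 and 109 ± 4.87) and MRPL49 (106 ± 6.59 and 101 ± 4.12). MRPS35, at 102 ± 6.79 and 105 ± 0.826, lay within the spread of MRPL49 and above it with siControl. The log2 fold changes of MRPS34, MRPS16 and MRPL49 were 0.09, -0.05 and 0.08, none past the threshold, and that of MRPS16 turned to 0.022 when libraries were scaled by their totals only. With 1 library left out they ranged from 0.032 to 0.14 for MRPS34, from -0.087 to -0.0040 for MRPS16 and from 0.026 to 0.11 for MRPL49. The least abundant were MRPL39 (9.29 ± 1.24 and 9.13 ± 1.28), MRPS28 (8.86 ± 0.651 and 10.3 ± 2.62) and MRPL54 (8.57 ± 0.34 and 11.1 ± 2.21). MRPS28 had a log2 fold change of -0.22 (adjusted p = 0.421), which was -0.0022 without siControl replicate 2.

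The exons of 19 MRP genes overlapped exons of another counted symbol, 14 of them over more than 10% of the transcript and 4 over more than 50%. These 4 were MRPL53 (99.2%, with CCDC142), MRPS24 (90.9%, with URGCP-MRPS24), MRPS18C (83.6%, with ABRAXAS1) and MRPS18A (60.6%, with RSPH9). Neither the strand setting nor the way reads in shared exons were assigned is given in the sources used here, so the values of these genes are uncertain. MRPS34, MRPS22, MRPS16 and MRPL9 overlapped another symbol over 32.6%, 26.6%, 15.3% and 14.2% of the transcript. MRPS15 and MRPL10 had no such overlap. A pseudogene of MRPS31, MRPS31P5, was counted too, with 239 to 303 counts per library beside 432 to 513 for MRPS31, and the counting may split the reads of the pair.

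The start of another gene on the opposite strand lay within 1000 bases for 20 MRP genes. Such head-to-head pairs share the stretch between their starts. The log2 fold changes of the partners had the same sign as the MRP gene for 7 of these 20, which form 19 separate pairs, since 1 pair counts from both of its genes. Of the 20 partners 1 was itself called, MTBP, the partner of MRPL13 (0.34, adjusted p = 0.0324, beside 0.03 for MRPL13). Over all tested genes 9.66% were called. Neither the count of calls nor that of shared signs was tested against a background. In the pair counted from both sides both are MRP genes, MRPL46 of the large and MRPS11 of the small subunit, with starts 63 bases apart. MRPS11 had a log2 fold change of -0.10 (SE 0.096, adjusted p = 0.606), opposite in sign to MRPL46. The log2 ratio of MRPL46 to MRPS11 was -0.02, -0.38 and -0.31 with siALDOA and -0.62, -0.80 and -0.33 with siControl. The values of the groups overlapped, and the pair was chosen after its values were seen.

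The median log2 fold change of the 30 genes with the ETS word in any window was -0.0065, and that of the 39 without it 0.060. For the YY1 word the medians were 0.060 in 13 genes and 0.016 in 56, and for the SP1 word 0.061 in 42 and -0.039 in 27. For the CCAAT box they were 0.041 in 23 genes and 0.029 in 46, and for the NRF1 word 0.097 in 3 and 0.029 in 66. These differences were not tested. Among the 11 regulators of mitochondrial gene expression examined, NRF1 had a log2 fold change of -0.06 (adjusted p = 0.794), GABPA, the DNA-binding subunit of GABP, 0.02 (adjusted p = 0.882) and YY1 0.09 (adjusted p = 0.327). The other GABP subunits, GABPB1 and GABPB2, had values of -0.0077 and -0.33 (adjusted p = 0.971 and 0.0870), and MYC had -0.18 (adjusted p = 0.0663). PPARGC1A had a value of 1.16 (adjusted p = 0.171) that rested on siALDOA replicate 1. It was at 2.23, 0.70 and 0.53 CPM with siALDOA and 0.58, 0.66 and 0.30 CPM with siControl, and the groups overlapped. Of the 11, PPARGC1B, a coactivator, was called, or 9.09% beside 9.66% of all tested genes. It was at 15.8, 17.3 and 18.4 CPM with siALDOA and 26.0, 20.02 and 23.2 CPM with siControl, a fall of 0.43 on the log2 scale (log2 fold change -0.43, SE 0.10, adjusted p = 0.0116).

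The proteins that work with the mitochondrial ribosome were described from lists of their own. The 5 ribosomal proteins with other names (DAP3, PTCD3, CHCHD1, AURKAIP1 and GADD45GIP1) had a median log2 fold change of -0.073, with 0 called by edgeR and 0 at an unadjusted p below 0.05. Of 27 genes for assembly of the ribosome and modification of its RNA, 2 rose and 2 fell. RCC1L, an assembly factor, was at 67.9, 73.8 and 75.6 CPM with siALDOA and 54.2, 59.2 and 58.3 CPM with siControl (log2 fold change 0.34, SE 0.066, adjusted p = 0.00203). RPUSD4, which makes pseudouridine in the large ribosomal RNA, rose from 42.6, 44.3 and 44.9 CPM with siControl to 57.5, 52.7 and 59.5 CPM (0.36, SE 0.069, adjusted p = 0.00145). METTL15, a methyltransferase of the small ribosomal RNA, and NGRN, which acts with RCC1L and RPUSD4 in the same module, fell, with log2 fold changes of -0.25 and -0.22 (adjusted p = 0.0358 and 0.0126). Its other members on the list, FASTKD2, RPUSD3 and TRUB2, had log2 fold changes of 0.0076, 0.10 and -0.11, none past the threshold (adjusted p = 0.966, 0.698 and 0.416).

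Of 15 translation factors, 1 rose and 2 fell. OXA1L, the insertase that receives the new chains at the inner membrane, was at 58.1, 56.8 and 59.0 CPM with siALDOA and 49.6, 49.2 and 47.3 CPM with siControl (log2 fold change 0.25, SE 0.064, adjusted p = 0.0146). TUFM, the elongation factor that delivers tRNAs, was at 143, 156 and 152 CPM against 168, 181 and 183 CPM (-0.24, SE 0.059, adjusted p = 0.0128). MTRF1L, a release factor, had a log2 fold change of -0.26 (adjusted p = 0.0226). In the list of 10 genes for transcription and upkeep of the mitochondrial genome, TFB2M, a transcription factor of the organelle's polymerase, and TOP1MT, its topoisomerase, fell, with values of -0.33 and -0.32 (adjusted p = 0.0188 and 0.0321). TFAM, which packs the mitochondrial genome, had a value of -0.05 (adjusted p = 0.694). The calls were 4 of 27 assembly genes, 3 of 15 translation factors and 2 of 10 transcription genes, or 14.8%, 20% and 20%, beside 9.66% of all tested genes and 11.7% of those in the range of levels of the MRP genes. These lists are short, and no difference from the background was tested. The mitochondrially encoded genes were not analysed here.

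For comparison, 78 tested cytosolic ribosomal protein genes had a median log2 fold change of -0.025, and 2 were called (2.56%). At an unadjusted p below 0.05 there were 7.69%, beside 20.5% of the MRP genes, and the groups were apart for 7.69%, beside 21.8%. RPS9 was higher, with 0.22 (adjusted p = 0.0224), and RPS7 lower, with -0.29 (adjusted p = 0.00303). Of 36 nuclear genes of complex I, whose assembly needs subunits made by the mitochondrial ribosome, 0 were called by edgeR at the adjusted threshold, 2 had an unadjusted p below 0.05, and the median was 0.041.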

How the data were processed

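RNA-Seq libraries of HT29 cells (3 siALDOA, 3 siControl) were deposited by the authors as raw counts per gene symbol, 1 file per library, without normalization. The reads had been aligned by the authors to hg38 with TopHat2 and counted with gfold, and the submitters' processing notes also name edgeR and limma. The annotation, the strand setting and the treatment of reads with several matches are not given in the sources used here. The 4 RNA18SN symbols had identical counts in every library. Here R 4.3.3 and edgeR 4.0.16 were used with filterByExpr, TMM normalization and the quasi-likelihood test across 15307 genes, with no covariate. The SE is the log2 fold change over the root of F. The method was tested on simulated data. DESeq2 1.42.0, limma 3.58.1 (voom) and the other alternatives are given in the closing section. Lengths and coordinates came from GENCODE 44 (hg38), promoters from RefSeq (GRCh38.p14). Genes named were all MRP genes called, those with the smallest p up to 20, the 3 most and 3 least abundant, and list genes called; a few further genes were named after their values were seen. Members and lists were chosen with earlier results of these data known.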

Additional observations from a re-analysis of the deposited data

How the results depend on the processing

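MRPS15 and MRPL10 were called with limma-voom, DESeq2, the likelihood ratio test, library totals only, upper quartile scaling, no filter, at least 10 counts in every library and without ribosomal RNA genes (the last chosen after seeing the data). Leaving out 1 library gave 0 to 2 MRP genes higher and 0 to 1 lower, and 359 to 644 genes of all tested higher and 471 to 790 lower. The 359 and 363 came without siControl replicate 2 and 3. The median of the MRP genes was then between -0.010 and 0.038. A single MRP gene was lower at an unadjusted p below 0.01 (MRPL28), with DESeq2 (1, MRPL28), with the likelihood ratio test (1, MRPL28) and with no filter (1, MRPL54). With library totals only, 279 genes were lower and 896 higher, and the median of the MRP genes was 0.096 (0.075 for all genes). With the replicate block, 4 MRP genes were higher (also MRPL45 and MRPL46, both found only in mitochondria) and 1 lower (MRPL28), and 987 and 1175 of all genes. Deviations of same-numbered libraries correlated at only 0.035, 0.027 and 0.026, so they share a number and no pairing was taken from it, although each correlated best with its own number, a hint from the data. MRPL39, with a range of -0.085 to 0.13 when 1 library was left out, changed sign without siALDOA replicate 2 (-0.043), siALDOA replicate 3 (-0.018) or siControl replicate 1 (-0.085), and MRPS16 to 0.022 with library totals only. In the settings of the named MRP genes, 355 values kept direction and side of the threshold, 9 lost the call, 7 gained one and 4 changed sign. All 9 losses fell on MRPS15 and MRPL10, the only named MRP genes with a call to lose. These were called in 10 and 11 of their 15 settings. The causes were not tested. With 3 libraries per group and a median SE of 0.079, no MRP gene with a smaller change than MRPS15 and MRPL10 was called in the main fit. Smaller changes may have been missed, and the limit of detection was not measured.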
